A study of Mus musculus with 10 samples.

Results

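Expression of 10 transcription factors of the secretory lineage was measured in mouse colon crypts, the epithelial glands in which stem cells at the base give rise to absorptive colonocytes and to the secretory goblet, enteroendocrine and tuft cells. The factors were Atoh1, Gfi1, Spdef, Foxa1, Foxa2, Foxa3, Xbp1, Creb3l1, Creb3l4 and Klf4, chosen by name as known secretory and goblet fate factors. All 10 matched a gene ID by symbol, out of 33632 gene IDs in the count table, and all 10 passed the filter on low counts that left 14963 genes. RNA sequencing covered 5 libraries labelled CKO and 5 labelled flox. CKO mice carried Lgr5-EGFP-IRES-CreERT2/+ together with Sox21fl/fl, and flox mice carried Sox21fl/fl without the Cre. Both groups therefore shared floxed alleles of Sox21, a transcription factor gene of the Sox family, and the labels give a normal diet and a normal liver for both. The Cre is made from the Lgr5 locus of stem cells, acts only once tamoxifen is given, and is known to be expressed in a mosaic of crypts. Ages and the tamoxifen schedule are not stated in the labels, nor whether flox mice received tamoxifen. The labels do not say whether the 5 libraries of a group are 5 animals, and a p-value here speaks only of the spread among libraries. The series as a whole concerns signals from hepatocytes to intestinal stem cells, and the comparison asks what differs in crypts of the Sox21 conditional knockout. Only CKO mice carried the Cre at the Lgr5 locus, so its effects and those of Sox21 deletion cannot be told apart here.

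As background, Atoh1 is the basic helix-loop-helix factor that commits a crypt progenitor to the secretory fate, and Notch signalling holds it back in neighbouring cells. Gfi1 acts downstream of Atoh1 and keeps goblet progenitors from the enteroendocrine fate, and Spdef drives goblet cell maturation. The forkhead factors Foxa1 and Foxa2 open chromatin for other factors and take part in goblet and enteroendocrine differentiation, with Foxa3 a close relative. Xbp1, Creb3l1 and Creb3l4 are bZIP factors that enlarge the secretory apparatus of the endoplasmic reticulum and Golgi, and Klf4 is a zinc finger factor of goblet cells and of differentiated epithelium.

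Library totals ran from 18926634 to 23642415 counts in CKO and from 21414122 to 23407565 counts in flox. Flox 1 and flox 4 stood apart: mitochondrially encoded genes made up 26.5% and 29.3% of their counts (4.30% to 11.8% elsewhere), and their scaling factors were 0.585 and 0.605 (0.965 to 1.28 elsewhere). Fold changes of the factors are therefore given with and without flox 1 and flox 4. Sox21 itself, the targeted gene, stood at 7.79, 6.73, 3.39, 3.51 and 5.27 CPM in CKO 1 to 5 and at 1.98, 6.53, 4.06, 2.72 and 4.93 CPM in flox 1 to 5, so its transcript did not check the labels, and CKO and flox mean the libraries labelled so. Which part of Sox21 is floxed is not stated. Lgr5, whose locus carries the Cre, averaged 4.73 ± 2.16 CPM in CKO and 2.99 ± 1.68 CPM in flox (SD, n = 5 each). All 7 epithelial markers were present in every library, with Epcam at 961 to 1135 CPM in CKO and 559 to 1102 CPM in flox. By the log2 fold change of CKO over flox, 2 of the 7 were higher in CKO, Epcam (0.24) and Cdh1 (0.13). The other 5 were lower, with Krt18 the lowest at -1.14, and the median of the 7 was -0.13.

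None of the 10 factors passed an adjusted p of 0.05 (edgeR's quasi-likelihood test, Benjamini-Hochberg adjustment over all tested genes). This count of 0 of 10 stood beside 0 of 14963 genes in each direction (0%), and DESeq2 also called 0 of the 10, beside 165 genes (0.957%). Changes are CKO over flox on the log2 scale throughout. At an unadjusted p under 0.05, 1 factor was higher in CKO (Foxa2), where 5.05% of all genes were, and 2 were lower (Spdef and Foxa3), where 7.91% were. Of the 10, 5 had a positive and 5 a negative log2 fold change, with a median of 0.02 beside 0.0010 over all genes. In bulk RNA, fewer cells of a type and less RNA per cell cannot be told apart.

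**Figure D1:**
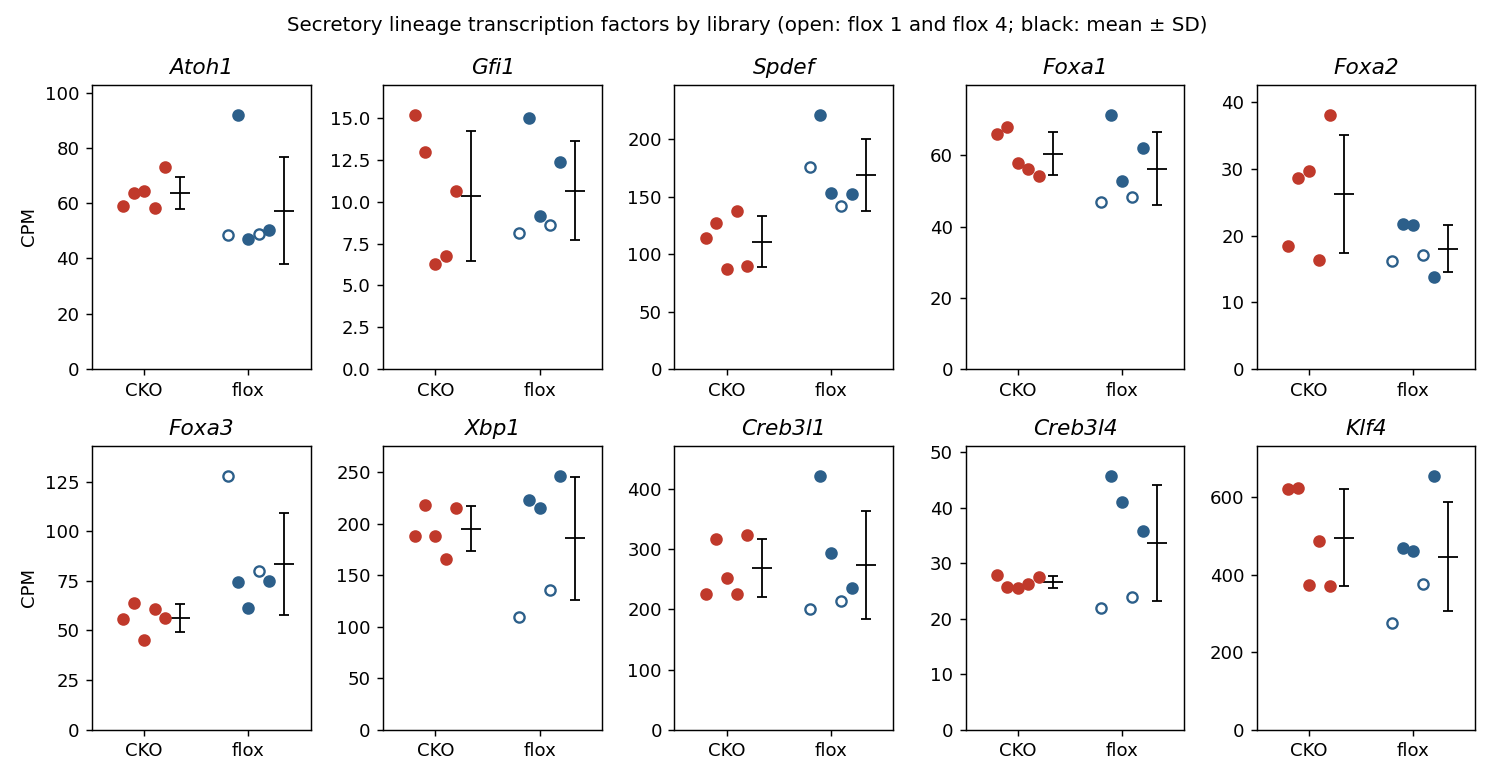
CPM (the count divided by the scaled library size) of each factor in the 5 CKO libraries (red, left) and the 5 flox libraries (blue, right), with flox 1 and flox 4 as open circles and the mean ± SD in black. Spdef is the gene in which the groups do not overlap, and in Creb3l4 the CKO libraries lie between the open and the filled flox circles.

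Levels of different factors were compared per gene length, where Klf4, Xbp1, Creb3l1 and Spdef were the 4 most abundant by the mean of each group. By the FPKM values the authors deposited, Klf4 averaged 212 ± 50.8 FPKM in CKO and 158 ± 85.3 FPKM in flox (SD, n = 5 each), and Xbp1 149 ± 32.3 FPKM in CKO and 116 ± 65.5 FPKM in flox. Creb3l1 averaged 138 ± 34.6 FPKM in CKO and 114 ± 69.6 FPKM in flox, and Spdef 87.8 ± 11.7 FPKM in CKO and 113 ± 44.6 FPKM in flox. These 4 were followed in CKO by Atoh1 at 41.2 ± 7.58 FPKM, Foxa3 at 37.8 ± 4.47 FPKM, Creb3l4 at 28.1 ± 3.17 FPKM, Foxa1 at 25.1 ± 3.59 FPKM and Foxa2 at 20.1 ± 8.65 FPKM. Gfi1 was the lowest of the 10 in all 10 libraries, at 5.04 ± 1.97 FPKM in CKO and 4.15 ± 2.30 FPKM in flox. Within CKO the ranges of neighbours in this order overlapped except between Spdef and Atoh1, between Foxa3 and Creb3l4, and between Foxa2 and Gfi1. Within flox the ranges were apart only between Spdef and Foxa3, which stood 4th and 5th there. Without flox 1 and flox 4 they were also apart between Klf4 and Xbp1, between Foxa1 and Foxa2, and between Foxa2 and Gfi1.

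**Figure D2:**
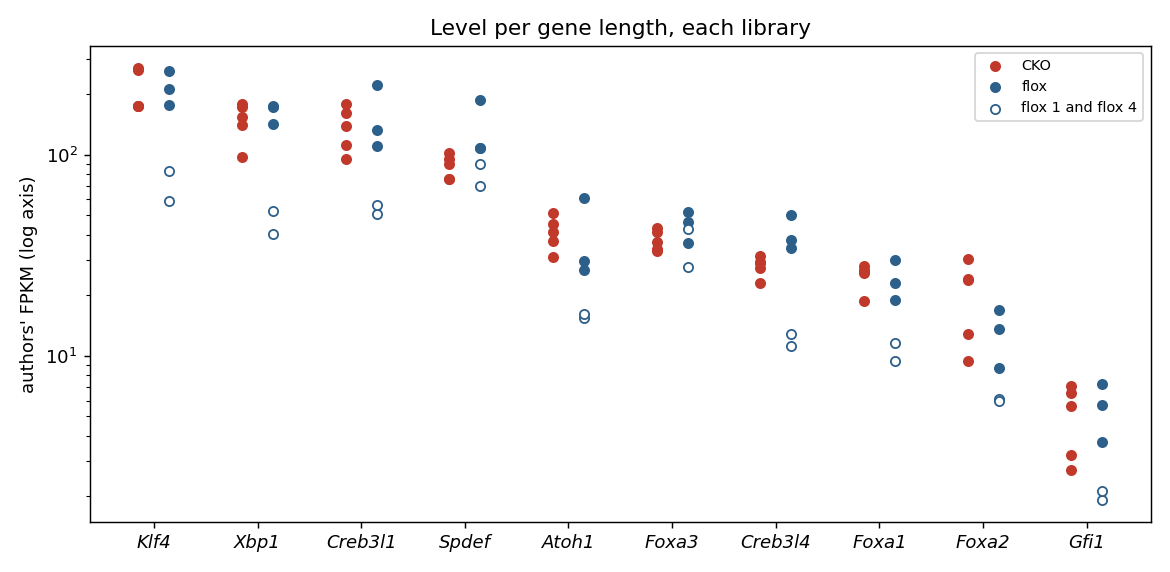
The authors' FPKM of each factor in each library on a log axis, with CKO in red (left of each pair) and flox in blue (right), and flox 1 and flox 4 as open circles. Genes are ordered by the CKO mean, from Klf4 at 212 FPKM to Gfi1 at 5.04 FPKM, and the open circles lie lowest in most genes.

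The order varied between libraries. Klf4 was the highest of the 10 in 7 of the 10 libraries, and Creb3l1 in 2, at 179 FPKM in CKO 5 (Klf4 at 174 FPKM) and 222 FPKM in flox 2 (Klf4 at 212 FPKM). Spdef was the highest in flox 1, at 89.6 FPKM, with Klf4 at 58.8 FPKM and Xbp1 at 40.2 FPKM, below Foxa3 at 42.7 FPKM. On the CPM scale, flox 1 and flox 4 both lay below the other 3 flox libraries in 6 of the 10 factors (Gfi1, Foxa1, Xbp1, Creb3l1, Creb3l4 and Klf4), and below all 8 other libraries in 4 of them (Foxa1, Xbp1, Creb3l1 and Creb3l4). How many of all genes did so was not counted, so this is not read as a trait of the factors. The fold changes without flox 1 and flox 4 are given with each gene.

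The commitment factors came first in the hierarchy and had values that did not pass the threshold. Atoh1 (ENSMUSG00000073043, chromosome 6) stood at 59.1, 63.6, 64.5, 58.4 and 73.0 CPM in CKO 1 to 5 and at 48.6, 91.8, 47.0, 49.0 and 50.3 CPM in flox 1 to 5. All 5 CKO libraries lay above 4 of the flox libraries and below flox 2. The log2 fold change of 0.15 ± 0.19 (SE, edgeR adjusted p = 0.688) corresponds to a CKO to flox ratio with a 95% interval from 0.836 to 1.48. Without flox 2 the log2 fold change was 0.39 with an edgeR adjusted p of 0.182. Gfi1 (ENSMUSG00000029275, chromosome 5), a zinc finger repressor, ranged from 6.26 to 15.2 CPM in CKO and from 8.15 to 15.1 CPM in flox. The ranges overlapped, with a log2 fold change of -0.05 ± 0.27 (SE), an edgeR adjusted p of 0.939 and a ratio interval from 0.641 to 1.46. Without flox 1 and flox 4 the log2 fold change was 0.02 for Atoh1 and -0.23 for Gfi1. Gfi1 rested on 103 to 424 counts per library, the fewest of the 10.

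Spdef (ENSMUSG00000024215, chromosome 17), the ETS-family factor of goblet maturation, was the one factor whose groups did not overlap. It stood at 114.0, 126.9, 86.9, 137.6 and 89.7 CPM in CKO 1 to 5 and at 175.9, 221.0, 153.3, 142.1 and 152.6 CPM in flox 1 to 5. The highest CKO library lay just below the lowest flox library, and CKO 3 and CKO 5 were the lowest of the 10. This was 1 of 10 factors with every CKO library below every flox library, where 1.26% of all genes were, and 0 of 10 had every CKO library above, where 0.922% were. The log2 fold change was -0.61 ± 0.17 (SE), a ratio of 0.657 with an interval from 0.507 to 0.851, yet the edgeR adjusted p was 0.332 and that of DESeq2 0.0769. By its p Spdef ranked 184 among the 14963 genes. Without flox 1 and flox 4 the value was -0.65 ± 0.19 (SE, edgeR adjusted p = 0.633).

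Of the forkhead factors, Foxa3 and Foxa2 stood on opposite sides and Foxa1 between them. Foxa3 (ENSMUSG00000040891, chromosome 7) stood at 55.7, 64.0, 45.4, 60.7 and 56.4 CPM in CKO 1 to 5 and at 127.8, 74.2, 61.2, 80.0 and 75.0 CPM in flox 1 to 5. All 5 CKO libraries lay below the flox mean and 4 of them below every flox library, with CKO 2 above flox 3, and flox 1 stood far above the rest. The log2 fold change was -0.57 ± 0.19 (SE, edgeR adjusted p = 0.365), and -0.31 ± 0.14 (SE, edgeR adjusted p = 0.772) without flox 1 and flox 4, where the ratio interval ran from 0.658 to 0.995.

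Foxa2 (ENSMUSG00000037025, chromosome 2) stood at 18.5, 28.7, 29.7, 16.3 and 38.0 CPM in CKO 1 to 5 and at 16.1, 21.7, 21.5, 17.1 and 13.8 CPM in flox 1 to 5. CKO 2, CKO 3 and CKO 5 lay above every flox library, while CKO 1 and CKO 4 lay within the flox range. Its log2 fold change was 0.54 ± 0.23 (SE, edgeR adjusted p = 0.379), with a ratio interval from 1.02 to 2.06, and 0.48 ± 0.28 (SE, edgeR adjusted p = 0.815) without flox 1 and flox 4, where the interval ran from 0.907 to 2.13. Foxa1 (ENSMUSG00000035451, chromosome 12) ranged from 54.3 to 67.9 CPM in CKO, inside its flox range of 47.0 to 71.2 CPM. Its log2 fold change was 0.10 ± 0.14 (SE, edgeR adjusted p = 0.711), with a ratio interval from 0.872 to 1.32. Without flox 1 and flox 4 the log2 fold change of Foxa1 was -0.03.

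**Figure D3:**
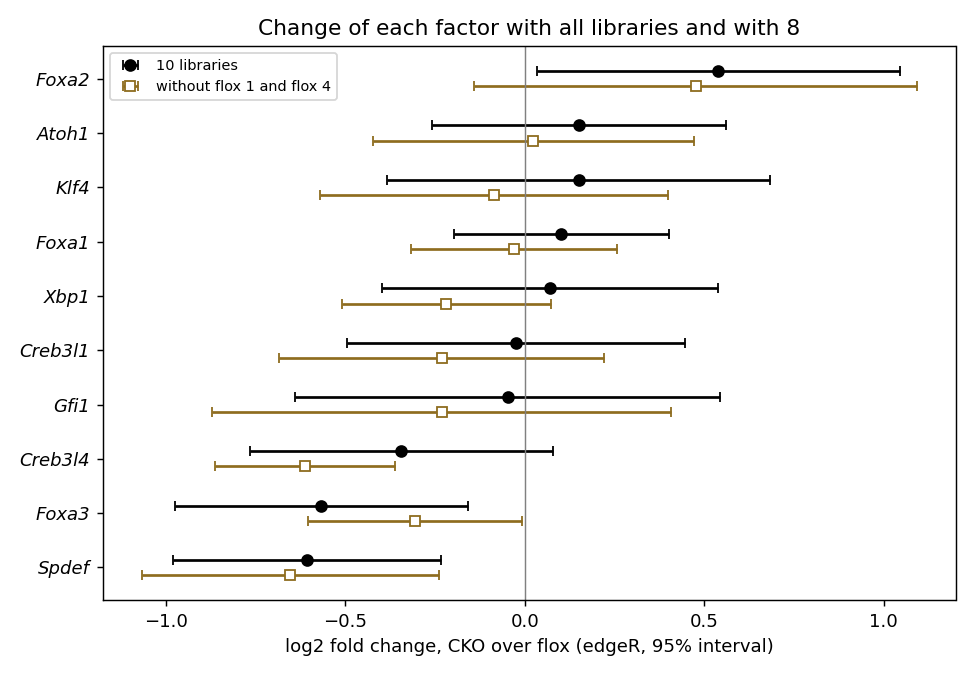
Log2 fold change of each factor, CKO over flox, over all 10 libraries (black circles) and without flox 1 and flox 4 (open brown squares). Bars are approximate 95% intervals computed from the edgeR fit. Spdef keeps its place near -0.61 and -0.65, Foxa3 moves toward 0 and Creb3l4 away from it.

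The bZIP factors of the secretory apparatus differed in how far they rested on flox 1 and flox 4. Creb3l4 (ENSMUSG00000027938, chromosome 3), a membrane-bound factor of the Creb3 family, stood at 27.8, 25.7, 25.6, 26.2 and 27.5 CPM in CKO 1 to 5 and at 21.8, 45.7, 41.0, 23.9 and 35.8 CPM in flox 1 to 5. The CKO libraries lay within a narrow band, above flox 1 and flox 4 and below the other 3 flox libraries. The log2 fold change was -0.34 ± 0.19 (SE, edgeR adjusted p = 0.429) over all libraries. Without flox 1 and flox 4 it was -0.61 ± 0.11 (SE), a ratio of 0.654 with an interval from 0.550 to 0.778, from a flox mean of 40.8 ± 4.95 CPM (SD, n = 3).

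In that reduced comparison of 15628 genes Creb3l4 had the 8th smallest p, with an edgeR adjusted p of 0.361, and DESeq2 gave an adjusted p of 0.00398, the one DESeq2 call among the 10 factors, beside 68 genes (0.402%). EdgeR called 0 of the 15628 genes (0%). Creb3l4 and Spdef were the 2 factors with every CKO library below flox 2, flox 3 and flox 5, where 2.57% of all genes were, and 0 of the 10 lay wholly above, where 2.09% did. At an unadjusted p under 0.05, Spdef, Foxa3 and Creb3l4 were lower in that comparison, 3 of 10 where 3.07% of all genes were, and 0 of 10 were higher, where 3.34% were.

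Creb3l1 (ENSMUSG00000027230, chromosome 2), a relative of Creb3l4, ranged from 225.4 to 324.0 CPM in CKO and from 201.1 to 421.9 CPM in flox. The CKO range lay inside the flox range, with a log2 fold change of -0.03 ± 0.22 (SE, edgeR adjusted p = 0.959) and a ratio interval from 0.709 to 1.36, and the log2 fold change was -0.23 without flox 1 and flox 4. Xbp1 (ENSMUSG00000020484, chromosome 11), the factor made active by splicing of its mRNA through Ire1, stood at 188.2, 217.7, 188.4, 165.3 and 215.1 CPM in CKO 1 to 5 and at 109.1, 222.4, 215.4, 135.2 and 246.1 CPM in flox 1 to 5. All 5 CKO libraries lay above flox 1 and flox 4, and all but CKO 2 lay below the other 3. The log2 fold change was 0.07 ± 0.21 (SE, edgeR adjusted p = 0.881), and -0.22 ± 0.13 (SE, edgeR adjusted p = 0.818) without flox 1 and flox 4. Gene counts do not separate spliced from unspliced Xbp1.

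Klf4 (ENSMUSG00000003032, chromosome 4), the factor with the highest mean FPKM in both groups, ranged from 372.2 to 623.5 CPM in CKO and from 274.3 to 654.9 CPM in flox. CKO 1 and CKO 2 were high and CKO 3 and CKO 5 low, all within the flox range. Its log2 fold change was 0.15 ± 0.24 (SE, edgeR adjusted p = 0.761), with a ratio interval from 0.767 to 1.60, and -0.09 without flox 1 and flox 4.

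Start-site windows of 300 bases, from 250 before to 50 after a RefSeq transcript start, matched 9 of the 10 factors (all but Creb3l1) in 14 windows (RefSeq, GRCm38.p6). They are shown for Spdef and Foxa3, the factors that were lower at an unadjusted p over all libraries, and for Creb3l4, which was lower at an unadjusted p without flox 1 and flox 4. Of the 3 Creb3l4 windows the first and the last along the gene are printed, and the one between them held no match to the letters searched. The windows were searched on both strands for AACAAT (a Sox-type core, in 10.7% of 32841 windows of this length), CAGCTG (an E-box, 16.3%), TGACGT (the CRE-type core of bZIP sites, 7.51%) and TGTTTAC (a forkhead-type core, 3.65%), none of which overlap here. Capitals mark matches, read 5′ to 3′ on the strand of the gene.
Spdef, chr17:27728902-27729201, minus strand: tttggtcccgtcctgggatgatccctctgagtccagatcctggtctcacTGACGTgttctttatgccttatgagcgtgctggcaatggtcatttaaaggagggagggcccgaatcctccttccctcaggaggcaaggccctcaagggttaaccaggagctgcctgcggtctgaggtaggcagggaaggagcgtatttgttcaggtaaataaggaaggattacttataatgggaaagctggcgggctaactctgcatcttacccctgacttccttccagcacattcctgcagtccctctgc
Foxa3, chr7:19023490-19023789, minus strand: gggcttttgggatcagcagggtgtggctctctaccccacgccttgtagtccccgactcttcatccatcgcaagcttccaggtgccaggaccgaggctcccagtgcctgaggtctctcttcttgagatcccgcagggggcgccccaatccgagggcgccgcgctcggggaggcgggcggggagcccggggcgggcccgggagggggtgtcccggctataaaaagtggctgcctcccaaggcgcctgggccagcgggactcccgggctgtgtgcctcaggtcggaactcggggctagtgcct
Creb3l4 first start, chr3:90243463-90243762, minus strand: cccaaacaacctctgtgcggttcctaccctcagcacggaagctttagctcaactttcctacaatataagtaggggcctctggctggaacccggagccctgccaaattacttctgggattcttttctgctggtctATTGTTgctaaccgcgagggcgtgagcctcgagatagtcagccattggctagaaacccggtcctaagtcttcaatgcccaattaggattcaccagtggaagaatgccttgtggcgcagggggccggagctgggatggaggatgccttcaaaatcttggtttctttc
Creb3l4 last start, chr3:90242501-90242800, minus strand: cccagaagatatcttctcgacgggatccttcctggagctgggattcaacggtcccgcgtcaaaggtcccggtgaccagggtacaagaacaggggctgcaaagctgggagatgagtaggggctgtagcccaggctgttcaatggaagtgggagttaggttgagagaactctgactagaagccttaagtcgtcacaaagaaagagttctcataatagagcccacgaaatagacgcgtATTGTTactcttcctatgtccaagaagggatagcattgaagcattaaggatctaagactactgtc
The Spdef window held 1 CRE-type match that began 201 bases before the start, and the Foxa3 window held no match to these letters. The Creb3l4 windows shown each held 1 Sox-type match on the reverse strand, beginning 116 and 15 bases before their starts, and these were the Sox-type matches in 2 of the 14 windows. Among the other factors, Foxa1 held 1 forkhead-type match and Klf4 1 E-box. The windows of Foxa2, the factor that was higher at an unadjusted p over all libraries, held no match and are not printed. A match of letters is a description and does not show binding.

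Ratios of pairs of factors inside a library do not depend on how libraries are scaled. The log2 ratio of Spdef to Atoh1 was 0.95, 0.997, 0.43, 1.24 and 0.30 in CKO 1 to 5 and 1.85, 1.27, 1.70, 1.54 and 1.60 in flox 1 to 5. The groups did not overlap, with CKO 4 and flox 2 close to each other, and the means were 0.78 ± 0.40 in CKO and 1.59 ± 0.22 in flox (SD, n = 5 each), a difference of -0.81, or of -0.74 without flox 1 and flox 4. The log2 ratio of Foxa3 to Foxa2 averaged 1.16 ± 0.59 in CKO and 2.18 ± 0.58 in flox, which differ by -1.02, or by -0.74 if flox 1 and flox 4 are left out. Its ranges overlapped, since CKO 1 at 1.59 and CKO 4 at 1.89 stood above flox 3 at 1.50. The log2 ratio of Creb3l1 to Creb3l4 averaged 3.32 ± 0.27 in CKO and 3.03 ± 0.23 in flox, with overlapping ranges, a difference of 0.29, or of 0.39 without flox 1 and flox 4. These pairs were formed with the factors' changes already known, so the differences are descriptions and carry no test.

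**Figure D4:**
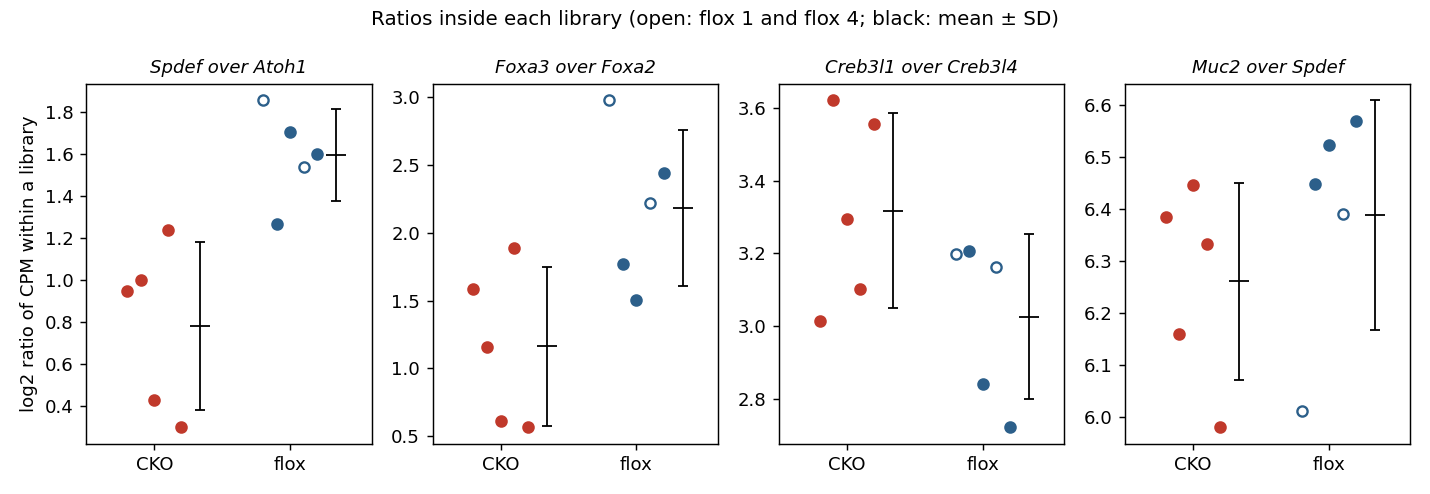
Log2 ratio of the CPM of 2 genes within each library, with CKO in red (left), flox in blue (right), flox 1 and flox 4 open, and the mean ± SD in black. The Spdef to Atoh1 ratio is at most 1.24 in CKO and at least 1.27 in flox, and the Muc2 to Spdef ratio overlaps between the groups.

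The products of goblet cells, several of which Spdef is known to induce, mostly had lower values in CKO. A link between these values and the level of Spdef was not tested. Of 23 tested goblet product genes 21 had a negative and 2 a positive log2 fold change, with a median of -0.57, or of -0.46 without flox 1 and flox 4. EdgeR called 0 of the 23 at the adjusted threshold, and 11 were lower and 0 higher at an unadjusted p under 0.05, where 7.91% of all genes were lower and 5.05% higher. DESeq2 called 4, all lower, where it called 0.957% of all genes: Capn9, Tpsg1, Bcas1 and Retnlb. Capn9, a calpain protease of the gut, averaged 36.7 ± 12.3 CPM in CKO and 88.7 ± 16.3 CPM in flox, and Tpsg1, a tryptase, 49.6 ± 9.91 CPM in CKO and 84.3 ± 4.93 CPM in flox (SD, n = 5 each). The summed level of the list ran from 16795 to 29338 CPM in CKO and from 33300 to 48040 CPM in flox, with no overlap. By the group means the largest part of that sum was Muc2, the gel-forming mucin, at 8592 ± 2060 CPM in CKO and 14237 ± 3135 CPM in flox (SD, n = 5 each). Gene by gene, 5 of the 23 had every CKO library below every flox library, where 1.26% of all genes did. The log2 ratio of Muc2 to Spdef overlapped between the groups, at 5.98 to 6.45 in CKO and 6.01 to 6.57 in flox, with means of 6.26 ± 0.19 in CKO and 6.39 ± 0.22 in flox (SD, n = 5 each).

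The other lists around the factors had medians closer to that of all genes. Of 25 tested further regulators of secretory and enterocyte fate, 13 were higher and 12 lower, with a median log2 fold change of 0.08 and 0 calls by edgeR and by DESeq2. Those with the smallest p were Notch2, a Notch receptor, at 4.87 ± 1.78 CPM in CKO and 2.42 ± 1.28 CPM in flox, and Gfi1b, a relative of Gfi1 known in tuft cells, at 0.871 ± 0.311 CPM in CKO and 1.50 ± 0.517 CPM in flox (SD, n = 5 each, edgeR adjusted p = 0.373 and 0.381). Hes5, Hey1 and Dll3 were too low to be tested.

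Genes of the endoplasmic reticulum and secretory pathway, among them targets of Xbp1, had 17 members higher and 19 lower of 36, with a median log2 fold change of -0.03, 0 calls by edgeR and 1 by DESeq2 (0.957% of all genes). That gene was Edem2, which takes part in disposal of misfolded glycoproteins, at 72.8 ± 6.49 CPM in CKO and 98.4 ± 10.03 CPM in flox (SD, n = 5 each, DESeq2 adjusted p = 0.0409), and DESeq2 did not call it without flox 1 and flox 4 (adjusted p = 0.408). Creld2, an endoplasmic reticulum stress gene, averaged 55.7 ± 10.3 CPM in CKO and 77.1 ± 8.82 CPM in flox (SD, n = 5 each).

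Among 16 relatives of the factors (other Creb3, Klf, ETS and Fox factors), 11 were higher and 5 lower, with a median log2 fold change of 0.14, 0 calls by edgeR and 1 by DESeq2 (0.957% of all genes). That gene was Foxo3, a forkhead factor outside the Foxa family, which averaged 80.7 ± 8.81 CPM in CKO and 54.9 ± 3.43 CPM in flox (SD, n = 5 each), with every CKO library above every flox library (edgeR adjusted p = 0.174). Foxq1, a forkhead factor, averaged 7.41 ± 4.25 CPM in CKO and 3.33 ± 1.26 CPM in flox (SD, n = 5 each, edgeR adjusted p = 0.365).

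**Figure D5:**
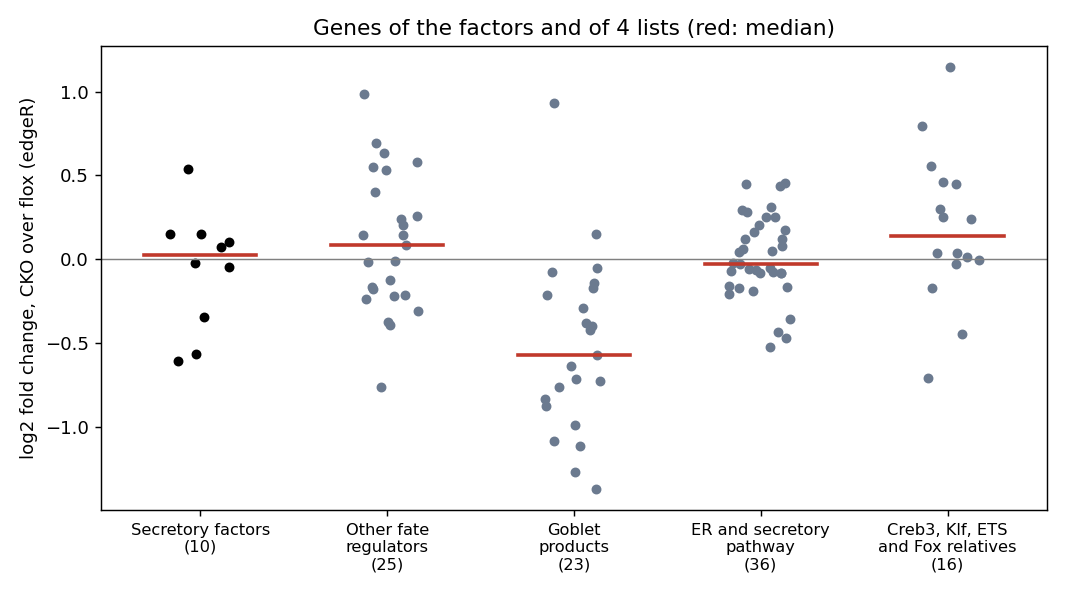
Log2 fold change, CKO over flox, of each tested gene among the 10 factors (black) and the 4 lists (grey), with the number of genes under each name and the median in red. The goblet products lie lowest, with a median of -0.57, and the factors spread from -0.61 to 0.54 around a median of 0.02.

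Markers of other cell types that also express some of these factors were read beside them. Plasma cells use Xbp1, and the 9 B and plasma cell markers (5 passed the filter) summed to 4.34 to 5.52 CPM in CKO and 4.19 to 14.3 CPM in flox, with Tnfrsf17 at 0 in 9 of 10 libraries and Mzb1 at 0 in 6. The 5 tested were all lower in CKO, at these low levels. Fibroblasts express Creb3l1, and their 9 markers, muscle included (7 passed), summed to 43.4 to 182 CPM in CKO and 16.7 to 62.7 CPM in flox, with Myh11 at 0 in 2 libraries. Endothelium expresses Klf4, and its 8 markers (5 passed) summed to 8.58 to 18.0 CPM in CKO and 20.8 to 68.6 CPM in flox, with Cdh5 at 0 in 5 libraries. In each flox library the largest part of that sum was Ly6c1, at 0.865 to 8.35 CPM in CKO and 10.4 to 57.2 CPM in flox. Of the 5 tested endothelial markers 3 were lower in CKO and 2 higher. Beside Ly6c1 the lower ones were Vwf, at 3.02 to 4.17 CPM in CKO and 5.89 to 7.40 CPM in flox, and Plvap (log2 fold change -0.91). Pecam1 (log2 fold change 0.16) and Esam (0.07) were the higher ones. Colonocytes express Klf4 too, and their 10 markers (all passed) summed to 3338 to 10545 CPM in CKO and 6518 to 10187 CPM in flox. By the group means the largest part of the colonocyte sum was Car1, at 481 to 6872 CPM in CKO and 3966 to 5774 CPM in flox. Gene by gene, 7 of these 10 were higher in CKO and 3 lower, with a median log2 fold change of 0.07. The 8 markers of tuft cells summed to 58.4 to 140.1 CPM in CKO and 79.4 to 204.7 CPM in flox, and the 8 of enteroendocrine cells, which share Foxa1 and Foxa2 with goblet cells, to 234.2 to 302.8 CPM in CKO and 167.5 to 336.2 CPM in flox. All 8 tuft markers were lower in CKO (median log2 fold change -0.31), and of the enteroendocrine markers 4 were higher and 4 lower (median 0.04). The part of these cell types in the levels of the 10 factors was not tested. With the mitochondrial share as a covariate, the log2 fold change was -0.65 for Spdef (edgeR adjusted p = 0.392), -0.61 for Creb3l4 (0.149), -0.34 for Foxa3 (0.723) and 0.38 for Foxa2 (0.795).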

How the data were processed

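Libraries were made from total RNA of colon crypts with an mRNA-enriching TruSeq kit, per the labels' protocols, and the submitters' processing notes list fastp and HISAT2. Build, annotation, counter and strand setting are not stated there. The authors deposited a table of raw counts, whole numbers for each Ensembl ID, and a table of FPKM, scaled by them for length and library total. Groups and replicate numbers came from the titles. Of 33632 IDs, 26095 matched a symbol in GENCODE M21 (GRCm38), used for names and chromosomes. In that annotation 1 of the 10 factors, Gfi1, shares exon bases with another gene, A430072P03Rik, which had 0 to 4 counts per library.

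Counts were filtered with filterByExpr, scaled by trimmed mean of M values and tested with edgeR 4.0.16 in R 4.3.3 (robust quasi-likelihood fit, group as the only term, Benjamini-Hochberg over all tested genes, threshold 0.05). EdgeR's test gives no standard error, so each SE is the absolute log2 fold change divided by the square root of the test's F statistic. The 95% intervals were built from that SE with a t distribution and are approximate. Levels are CPM on the scaled library sizes, and log2 ratios use a prior count of 2. Alternatives used DESeq2 1.42.0, limma 3.58.1, other scalings, filters and pseudocounts, the replicate number as a block, the mitochondrial share as a covariate and left-out libraries. The fit was tested on simulated counts of this comparison over 14622 genes, where it recovered 53% of 100 genes changed by 1 on the log2 scale and 97% of 100 changed by 2. Of the genes called there, 5.66% were false calls. Both set changes were larger than those of the factors in the main fit, and no shift of flox 1 and flox 4 was simulated. The recovery of changes as small as those of the factors is therefore not known. No pair of libraries differed by as little as sampling noise (lowest chi-square per degree of freedom 27.1).

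The factors, gene lists, markers and left-out libraries were chosen with earlier results of these data known. Named genes are the 10 factors, Sox21, Lgr5 and of each list at most 4 called genes, or the 2 smallest p-values where none was called. Muc2 was named for its ratio to Spdef, Bcas1, Retnlb and the untested genes to spell out small counts, and Epcam and other markers as checks.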

Additional observations from a re-analysis of the deposited data

Results flagged for a closer look

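Among 28 groups of 5 values (the 10 factors and 4 ratios in each group of libraries), 2 held a library whose gap to its nearest neighbour exceeded Dixon's 95% critical share of the range, where chance flags about 1 in 20. Atoh1 stood at 91.8 CPM in flox 2, against 47.0 to 50.3 CPM in the other 4 flox libraries. Foxa3 stood at 127.8 CPM in flox 1, against 61.2 to 80.0 CPM in the other 4 flox libraries.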

How the results depend on the processing

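Over 24 alternatives the log2 fold change of Spdef stayed between -0.69 and -0.29, that of Foxa3 between -0.65 and -0.09 and that of Foxa2 between 0.37 and 0.96, and no factor passed the threshold except Creb3l4 in DESeq2 without flox 1 and flox 4, an alternative added after the data were seen (1 factor, -0.62). The number of genes called in all was 165 with DESeq2, 68 with DESeq2 without flox 1 and flox 4, 44 with limma voom and quality weights, 3 without a filter on low counts, 1 with the mitochondrial share as a covariate, and 0 to 2 with 1 library left out (2 without flox 2). Goblet products called numbered 4 with DESeq2, 4 with DESeq2 without flox 1 and flox 4, 2 with quality weights and 1 without a filter (Capn9). DESeq2 called 1 gene of the endoplasmic reticulum list, and DESeq2 (with and without flox 1 and flox 4) and quality weights each called 1 relative, Foxo3. None of the changes of sign that follow passed the threshold, and their causes were not tested. Creb3l1 turned to 0.0041 with upper-quartile scaling and 0.030 with limma voom, and ran from -0.12 to 0.19 with 1 library left out. Gfi1 ran from -0.22 to 0.11 and Xbp1 from -0.069 to 0.19 with 1 library left out. Xbp1 turned to -0.048 with quality weights, and to -0.22 (DESeq2 -0.23) without flox 1 and flox 4, where Foxa1 turned to -0.030 (-0.036) and Klf4 to -0.085 (-0.089). With the mitochondrial share as a covariate, Atoh1 turned to -0.024, Foxa1 to -0.053, Xbp1 to -0.25, Klf4 to -0.071 and Sox21 to -0.014. On log2(FPKM + 1) and log2(FPKM + 0.1) the median of all genes was 0.30 and 0.41, and Gfi1 turned to 0.28 and 0.36, Creb3l1 to 0.44 and 0.44, Creb3l4 to 0.15 and 0.17 and Edem2 to 0.013 and 0.015. Relative to that median Spdef stood at -0.59 and -0.70, Foxa3 at -0.39 and -0.50, and Creb3l4 at -0.15 and -0.24, and the goblet median before that correction was -0.073 and -0.10. The replicate numbers did not pair the libraries: same-numbered deviations correlated from -0.30 to 0.40 across genes, and 2 of 10 libraries correlated best with their own number. With the replicate number as a block 0 genes passed and Creb3l1 turned to 0.011. Gfi1, at 103 to 424 counts per library, was the factor with the fewest counts, and an effect of depth was not tested.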

Other observations

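The coefficient of variation was lower in CKO than in flox for 7 of the 10 factors over all libraries and for 5 without flox 1 and flox 4. That of Creb3l4 was 3.85% in CKO and 31.1% in flox, or 12.1% in flox without that pair, and that of Atoh1 was 9.17% in CKO and 33.7% in flox, or 39.6% without it. That of Xbp1 was 11.1% in CKO and 32.2% in flox, but 7.05% in flox without the pair. Gfi1, at 37.4% in CKO and 27.8% in flox, or 24.3% without the pair, and Foxa2, at 33.9% in CKO and 19.3% in flox, or 23.9% without it, had the higher value in CKO both ways. The difference in spread was not tested. Its direction was not counted over all genes, so these counts are not read as a trait of the factors.

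The gene length implied by dividing the counts of Spdef by its FPKM and the library total was 1148 and 1223 bases in flox 1 and flox 4, against 1398 to 1520 bases in the other 8 libraries. For Atoh1 it was 1823 to 1832 bases in that pair and 1801 to 1834 bases in the others. Over the 10 libraries the highest implied length divided by the lowest was 1.32 for Spdef, 1.22 for Foxa2, 1.15 for Foxa1, 1.11 for Xbp1 and 1.10 for Gfi1. For the other factors it was at most 1.04, as in Creb3l4. The authors' FPKM therefore did not use 1 fixed length for Spdef, Foxa2, Foxa1, Xbp1 and Gfi1, and their FPKM and CPM are not related by a constant.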
